A study of Homo sapiens with 6 samples.

Results

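The activin, inhibin and follistatin genes of OVCAR-3 ovarian cancer cells were followed in a count table that compares OV3/COX1KD with OV3/SCR cells. The 10 genes were taken by symbol from the 34811 genes of the table, and 9 of the 10 passed the filter on low counts. They encode 3 ligand subunits (INHA, INHBA and INHBB), the activin-binding proteins FST and FSTL3, and the follistatin-like protein FSTL1. The others encode the type II receptors ACVR2A and ACVR2B and the type I receptors ACVR1B and ACVR1. OVCAR-3 is an established human ovarian carcinoma line. OV3/SCR cells carry a scrambled shRNA in the pRS HuSH-29 plasmid, and OV3/COX1KD cells carry an shRNA against COX-1 in the same plasmid. Both are stable clones selected with puromycin and grown in the same serum-containing medium, and the labels name no added prostaglandin or ligand. Of each, 3 passages were sequenced, from clone #1 of OV3/SCR and clone #2 of OV3/COX1KD, so each condition was 1 clone and p-values measure the spread between passages only. The knockdown and the clone cannot be told apart in this design.

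Activins are secreted dimers of inhibin β subunits, activin A of the INHBA product and activin B of the INHBB product, while inhibins join a β subunit to the α subunit encoded by INHA. An activin binds a type II receptor, which recruits and activates a type I receptor that phosphorylates SMAD2 and SMAD3. Inhibins compete for the type II receptors with the help of the co-receptor betaglycan, and follistatin wraps activin and keeps it from its receptors. In the ovary, inhibins made by granulosa cells regulate pituitary follicle-stimulating hormone, and activins act within the gonad.

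Between 25291505 and 27391538 reads were counted on genes per library, and the smallest level taken as detectable, 3 counts, corresponded to 0.113 to 0.120 CPM. CPM here stands for counts scaled to the TMM-adjusted library size. The floor of 3 counts covers counting error only, and the 95% intervals of log2 fold changes come from the edgeR fit and include the spread between libraries. PTGS1, the gene of COX-1, had counts of 713, 658 and 641 in OV3/SCR against 456, 486 and 501 in OV3/COX1KD, or -0.45 ± 0.057 (standard error) as a log2 fold change (edgeR FDR = 1.3e-06). Markers of ovarian carcinoma epithelium were present in all libraries, with 8 of 8 genes in the table. Their summed level was 4657 to 4687 CPM in OV3/SCR and 6005 to 6182 in OV3/COX1KD. At an edgeR FDR under 0.01, 6 of the 8 were higher, beside 25.8% higher and 22.1% lower of all tested genes. PAX8, from 756 to 447 CPM, and KRT7, from 1041 to 942 CPM, were lower. KRT8, the largest part of the sum, went from 1502 to 2360 CPM. Exons of PAX8-AS1 on the opposite strand cover 22.4% of the exon length of PAX8. KRT8 and KRT18 overlap on opposite strands, over 7.63% and 17.1% of their exon lengths. The use of strand in the counting is not given. Of the granulosa and theca cell markers, NR5A1 and CYP19A1 stayed at or under 3 counts in every library, and the summed level of 101 to 107 CPM in OV3/SCR and 44.2 to 60.0 CPM in OV3/COX1KD was nearly all AMH. FOXL2, with 23 to 36 counts per library, and CYP17A1, with 22 to 35, passed the filter and were not called. STAR and LHCGR, with 1 to 8 counts, did not pass it. Summed fibroblast markers reached 10.9 to 11.6 CPM in OV3/SCR and 6.57 to 7.43 CPM in OV3/COX1KD, endothelial markers 0.998 to 1.59 and 1.36 to 1.95 CPM, and leukocyte markers 0.713 to 0.959 and 0.263 to 0.678 CPM.

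At an edgeR FDR under 0.01, 2 of the 9 tested genes rose in OV3/COX1KD cells, FST and ACVR1B, and 3 fell, FSTL3, FSTL1 and ACVR1. INHA, INHBB, ACVR2A and ACVR2B did not pass this threshold. Of all 17309 tested genes 47.9% passed it, 25.8% higher and 22.1% lower, so the share among the 9 lay near this background. With total count scaling 3466 genes were higher and 4978 lower over the whole table, in place of 4473 and 3820. None of the 9 passed the fold change of 2.5 that the study also required, which 3.92% of tested genes did. Their median log2 fold change was -0.032, beside -0.0087 over all tested genes. In 6 of the 9 the libraries of one condition lay wholly above or below those of the other, which held for 63.2% of all tested genes.

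**Figure D1:**
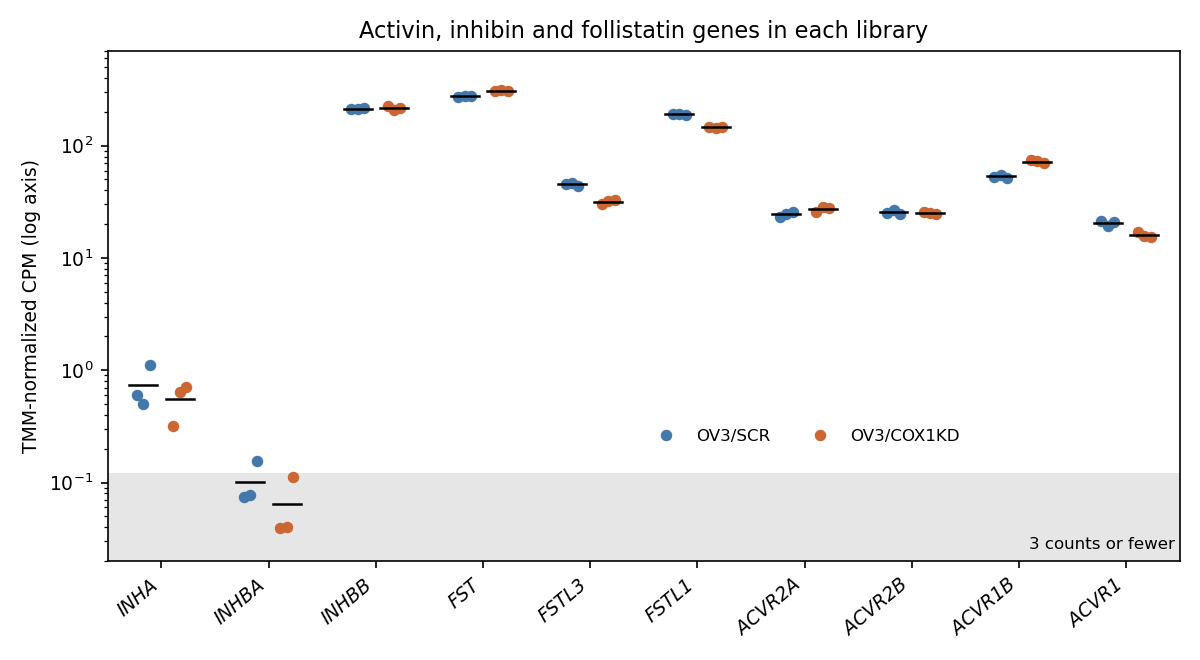
Level of each of the 10 genes in every library, in TMM-normalized CPM on a log axis, with points for the 3 OV3/SCR and 3 OV3/COX1KD libraries, a bar at each mean and grey shading where a library holds 3 counts or fewer. INHBB, FST and FSTL1 lie above 100 CPM in all libraries, whereas INHA stays near 1 CPM or lower and INHBA lies in or just above the shading.

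Of the 3 ligand subunits, only INHBB was present at more than a trace. INHBB (ENSG00000163083, chromosome 2 of GRCh37 from 121103712 to 121109379), which encodes the subunit of activin B, had counts of 5611, 5474 and 5554 in OV3/SCR against 5628, 5242 and 5738 in OV3/COX1KD. These 2 sets overlap. Its level was 212 ± 2.65 CPM in OV3/SCR against 216 ± 7.24 CPM in OV3/COX1KD (SD, n = 3 each), higher than 95.3% of tested genes in OV3/SCR. The log2 fold change was 0.029 with a 95% interval from -0.037 to 0.095 (edgeR FDR = 0.451), and with total count scaling its sign turned, to -0.049.

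INHBA (ENSG00000122641, chromosome 7 from 41706766 to 41745432), the subunit of activin A, had counts of 2, 2 and 4 in OV3/SCR against 1, 1 and 3 in OV3/COX1KD. With more than 3 counts in just 1 of 6 libraries, the gene did not pass the filter, and no fold change is given. A difference in INHBA was not detectable at this depth, and the edgeR FDR with no filter was 0.691.

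INHA (ENSG00000123999, chromosome 2 from 220433884 to 220440433), the α subunit that turns a β subunit into inhibin, had counts of 16, 13 and 29 in OV3/SCR against 8, 16 and 19 in OV3/COX1KD. The sets overlap, and OV3/SCR replicate 3 alone was above 1 CPM. Its level was 0.740 ± 0.334 CPM in OV3/SCR against 0.557 ± 0.210 CPM in OV3/COX1KD (SD, n = 3 each). The log2 fold change of -0.40 had a 95% interval from -1.15 to 0.35 (edgeR FDR = 0.353), wide enough to hold both a fall by more than 2-fold and a small rise. Without OV3/SCR replicate 3 the estimate was 0.026.

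Per kilobase of exon, INHBB made up 99.3% ± 0.302 of the summed level of the 3 subunits in OV3/SCR against 99.5% ± 0.204 in OV3/COX1KD (SD, n = 3 each). INHA made up 0.677% and 0.506%, and INHBA 0.0185% and 0.0114%. Of the related liver-type β subunits, INHBE had 60 to 90 counts per library and a log2 fold change of -0.13 (edgeR FDR = 0.467), and INHBC had 2 to 4 counts.

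The 250 bases before the RefSeq start of each ligand subunit gene follow, since their levels lie far apart, with those of FSTL3, the gene of the set with the largest fall among those called. They come from the RefSeq promoter table (GRCh38.p14), which held all 10 genes, and each matched GRCh37 exactly at the position given. For INHA and INHBA the RefSeq start lies inside the GENCODE gene span, so these sequences do not abut its end. Capitals mark matches on either strand of 3 short motifs chosen after the sequences were seen. The SMAD box was searched as CAGAC. The core of a cyclic AMP response element was searched as TGACG. The TATA box was searched as TATAA.
INHBB (chr2:121103462-121103711, + strand): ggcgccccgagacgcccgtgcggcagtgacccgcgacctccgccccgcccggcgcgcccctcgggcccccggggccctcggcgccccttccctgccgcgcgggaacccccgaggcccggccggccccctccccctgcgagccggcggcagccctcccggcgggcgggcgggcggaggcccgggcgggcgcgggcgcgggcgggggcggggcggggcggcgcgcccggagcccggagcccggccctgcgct
INHBA (chr7:41742689-41742938, - strand): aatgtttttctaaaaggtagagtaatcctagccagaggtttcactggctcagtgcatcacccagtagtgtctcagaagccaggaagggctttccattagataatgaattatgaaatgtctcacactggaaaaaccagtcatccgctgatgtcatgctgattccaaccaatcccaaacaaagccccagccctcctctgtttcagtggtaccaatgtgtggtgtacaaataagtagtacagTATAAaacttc
INHA (chr2:220436782-220437031, + strand): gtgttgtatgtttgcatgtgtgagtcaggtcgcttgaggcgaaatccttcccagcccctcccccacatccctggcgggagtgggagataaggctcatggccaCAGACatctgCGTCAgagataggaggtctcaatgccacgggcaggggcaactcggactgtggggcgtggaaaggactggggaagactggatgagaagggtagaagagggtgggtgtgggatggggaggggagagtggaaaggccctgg
FSTL3 (chr19:676142-676391, + strand): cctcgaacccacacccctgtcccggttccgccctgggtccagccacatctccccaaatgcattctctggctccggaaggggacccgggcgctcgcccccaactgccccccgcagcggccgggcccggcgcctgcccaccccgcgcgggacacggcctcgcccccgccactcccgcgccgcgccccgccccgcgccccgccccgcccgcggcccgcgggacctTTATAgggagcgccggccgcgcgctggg
The INHBB sequence is 89.6% G and C with 46 CG steps and holds none of the 3 motifs, and the INHBA sequence is 42.8% G and C with 1 CG step and has TATAA at 11 to 7 bases before the start. INHA, at 59.6% G and C with 7 CG steps, has CAGAC at 148 to 144 bases and TGACG, on the opposite strand, at 138 to 134 bases before the start, and these matches do not overlap. The FSTL3 sequence is 80% G and C with 36 CG steps and has TATAA on the opposite strand at 28 to 24 bases. Of all 27305 promoters in that table, 37.8% hold CAGAC, 21.7% TGACG and 19.6% TATAA in the same window, and the median is 58% G and C with 11 CG steps. The sequence of FST, the gene with the highest level of the 10, is 60% G and C, near that of INHA, and that of ACVR2A is 40.8%. Among the other 6 genes only ACVR1 holds a match, CAGAC at 74 to 70 bases. A match is a description of letters and not a bound site.

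The 3 follistatin-type genes moved in different directions. FST (ENSG00000134363, chromosome 5 from 52776456 to 52782964) encodes follistatin, the secreted protein that neutralizes activins. It had counts of 7220, 7201 and 7131 in OV3/SCR against 7745, 7795 and 8226 in OV3/COX1KD. All OV3/COX1KD values lay above all OV3/SCR values. The level was 274 ± 3.04 CPM in OV3/SCR against 309 ± 1.71 CPM in OV3/COX1KD (SD, n = 3 each), or 0.17 ± 0.028 (standard error) as a log2 fold change (edgeR FDR = 2.6e-05). This is a small rise, to 113% of the control level, and total count scaling brought it down to 0.095 on the log2 scale (edgeR FDR = 0.00705).

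FSTL3 (ENSG00000070404, chromosome 19 from 676392 to 683392) encodes a follistatin-related protein that also binds activins. It had counts of 1220, 1221 and 1137 in OV3/SCR against 764, 809 and 869 in OV3/COX1KD, with no overlap. The level went from 45.5 ± 1.45 CPM (SD, n = 3) to 31.8 ± 1.22 CPM (SD, n = 3), 69.7% of the control, or -0.52 ± 0.047 (standard error) as a log2 fold change (edgeR FDR = 1.2e-08). It was the only gene of the set whose called change was beyond 0.5 on the log2 scale.

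FSTL1 (ENSG00000163430, chromosome 3 from 120111140 to 120169863) encodes a secreted glycoprotein with a follistatin-like domain, abundant in mesenchymal cells. It had counts of 5123, 4969 and 4868 in OV3/SCR against 3713, 3625 and 3923 in OV3/COX1KD, again with no overlap. Its level was 190.4 ± 1.95 CPM in OV3/SCR against 146 ± 1.58 CPM in OV3/COX1KD (SD, n = 3 each), 76.9% of the control, or -0.38 ± 0.030 (standard error) as a log2 fold change (edgeR FDR = 1.7e-09). Of the fibroblast markers summed above, COL1A1 made up most of the level and was called lower, at 10.1 CPM in OV3/SCR and 5.93 CPM in OV3/COX1KD. DCN had 0.486 and 0.482 CPM, COL1A2 was not called, LUM had at most 1 count, and PDGFRB had 0.102 and 0.234 CPM with no overlap. Each condition was 1 clone of the OVCAR-3 carcinoma line, not a tissue with fibroblasts. The part of these markers in the result was not tested. Bulk RNA does not show whether a lower level was shared by all cells of a clone.

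Per kilobase of exon, FST held 73.9% ± 0.462 of the summed level of the 3 genes in OV3/SCR against 81.2% ± 0.205 in OV3/COX1KD (SD, n = 3 each). The share of FSTL3 was 11.1% ± 0.318 and 7.56% ± 0.253, and that of FSTL1 15.0% ± 0.220 and 11.3% ± 0.177 (SD, n = 3 each). The exons of BTNL12P, which has no row in the table, cover 3.36% of the exon length of FSTL1 on the opposite strand. FST and FSTL3 had no exon in common with another annotated gene.

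**Figure D2:**
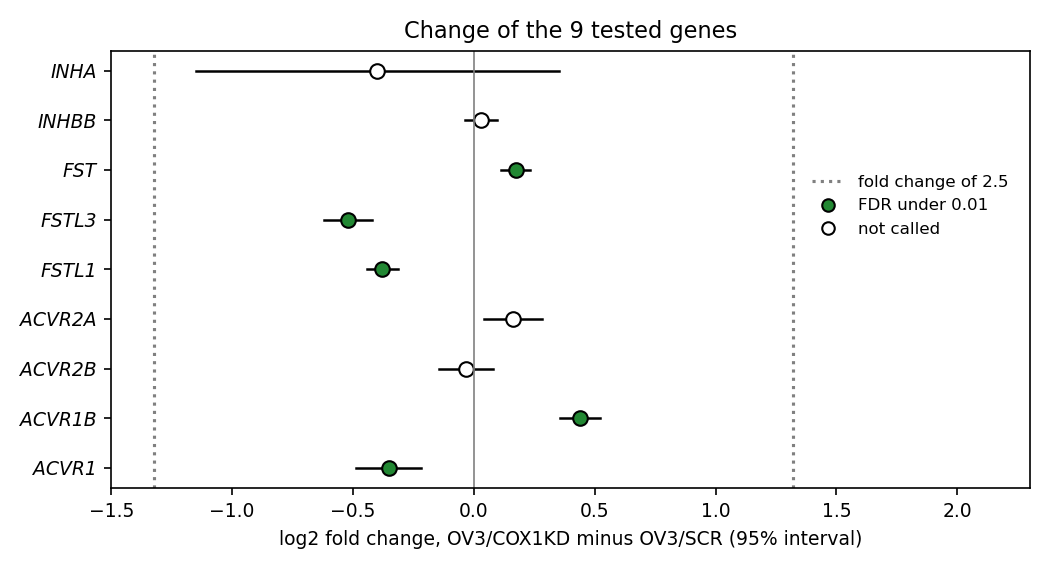
Log2 fold change of OV3/COX1KD against OV3/SCR for the 9 tested genes, with 95% intervals from the edgeR fit, filled where the FDR was under 0.01 and open otherwise, and dotted lines at a fold change of 2.5. FSTL3 at -0.52 and ACVR1B at 0.44 lie farthest from 0 among the called genes, and the interval of INHA is the widest.

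Of the type II receptors, which bind the ligand, neither passed the threshold. ACVR2A (ENSG00000121989, chromosome 2 from 148602086 to 148688395) had counts of 620, 642 and 665 in OV3/SCR against 651, 719 and 738 in OV3/COX1KD. In CPM the highest OV3/SCR library, at 25.7, lay just below the lowest OV3/COX1KD library, at 25.9. The log2 fold change was 0.16 with a 95% interval from 0.041 to 0.28 (edgeR FDR = 0.0213) and did not pass the threshold. It passed with no filter on low counts (edgeR FDR = 0.00846) and without OV3/COX1KD replicate 1 (edgeR FDR = 0.00990). Total count scaling gave 0.083 on the log2 scale (edgeR FDR = 0.221), DESeq2 an FDR of 0.0725, and leaving out OV3/SCR replicate 1 an edgeR FDR of 0.107. Exons of ORC4, on the opposite strand, cover 6.68% of the exon length of ACVR2A, and since the use of strand in the counting is not given in the sources used here, reads from that stretch cannot be assigned with certainty.

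ACVR2B (ENSG00000114739, chromosome 3 from 38495381 to 38534633) had counts of 671, 696 and 641 in OV3/SCR against 640, 630 and 651 in OV3/COX1KD, which overlap. The level was 25.6 ± 1.01 CPM in OV3/SCR against 25.0 ± 0.512 CPM in OV3/COX1KD (SD, n = 3 each). Its log2 fold change of -0.032 had a 95% interval from -0.14 to 0.079 (edgeR FDR = 0.625), and without OV3/SCR replicate 2 it was 0.0020.

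The type I receptors, which carry the signal into the cell, changed in opposite directions. ACVR1B (ENSG00000135503, chromosome 12 from 52345483 to 52390862) encodes the main activin type I receptor, which acts on SMAD2 and SMAD3. It had counts of 1405, 1433 and 1344 in OV3/SCR against 1857, 1811 and 1881 in OV3/COX1KD, with no overlap. The level rose from 53.2 ± 1.57 CPM (SD, n = 3) to 72.2 ± 1.59 CPM (SD, n = 3), or 0.44 ± 0.039 (standard error) as a log2 fold change (edgeR FDR = 8.9e-09).

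ACVR1 (ENSG00000115170, chromosome 2 from 158592763 to 158732842) encodes a type I receptor used mostly by bone morphogenetic proteins, which acts on another branch of SMAD proteins. It had counts of 567, 501 and 538 in OV3/SCR against 426, 396 and 409 in OV3/COX1KD. All OV3/COX1KD values lay below all OV3/SCR values. The level fell from 20.4 ± 1.07 CPM (SD, n = 3) to 16.0 ± 0.811 CPM (SD, n = 3), 78.4% of the control, or -0.35 ± 0.064 (standard error) as a log2 fold change (edgeR FDR = 9.9e-05).

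Levels were then compared between genes per kilobase of exon. In OV3/SCR the order was FST at 99.7, INHBB at 66.1, FSTL1 at 20.2, FSTL3 at 15.0, ACVR1B at 9.41, ACVR2A at 3.81, ACVR1 at 2.08, ACVR2B at 1.63, INHA at 0.453 and INHBA at 0.0123 CPM per kilobase. The ranges of the 3 libraries did not overlap between any neighbours in that order. In OV3/COX1KD the order was the same except that ACVR1B, at 12.8, stood above FSTL3, at 10.5 CPM per kilobase. There, ACVR1 at 1.63 and ACVR2B at 1.59 CPM per kilobase had overlapping ranges and could not be ordered. FST transcripts thus outnumbered those of INHBB per length in both conditions. Exon lengths came from GENCODE, which may differ from the annotation used for counting. With the longest transcript as the length, the ranges of ACVR2A and ACVR1 overlapped in OV3/SCR, at 4.71 and 4.61 CPM per kilobase, and ACVR1 and ACVR2B were apart in OV3/COX1KD, at 3.61 and 2.12 CPM per kilobase.

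**Figure D3:**
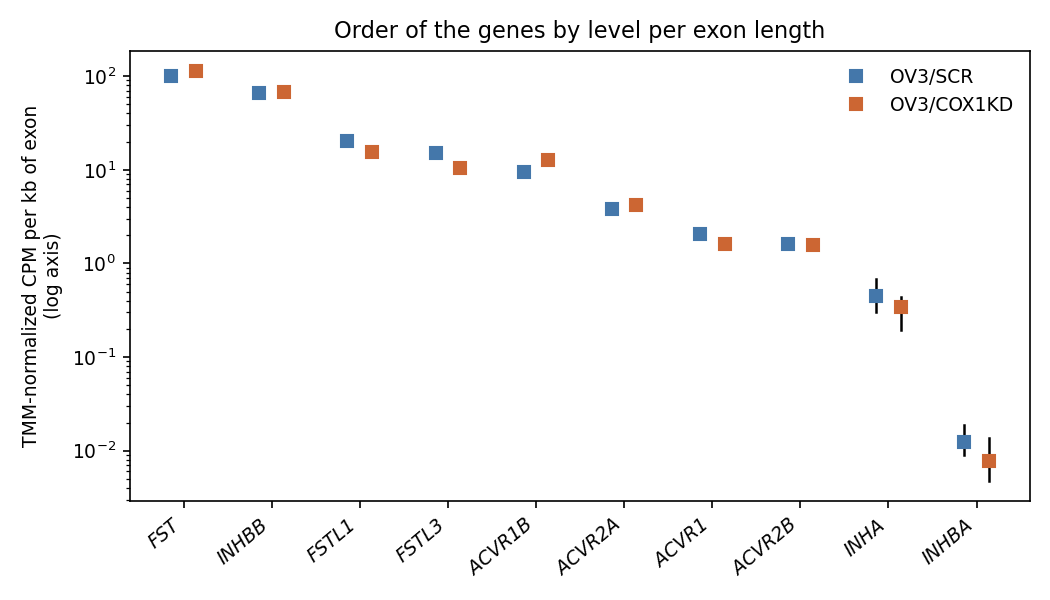
Mean level of each gene in TMM-normalized CPM per kilobase of exon on a log axis, ordered by OV3/SCR, with squares for the mean of 3 libraries and lines for their range (hidden by the squares where narrow). FST and INHBB stand highest in both conditions, and ACVR1B and FSTL3 change places.

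To follow the balance of the genes within each library, log2 ratios of 2 genes were computed on CPM plus 0.5, and their difference between conditions was tested by an exact permutation test, two-sided, over the 20 splits of 6 libraries. With 3 against 3 libraries this exact permutation test cannot go below p = 0.1, so none of the 10 ratios in the family could pass. The 4 ratios with INHBA are not given, since it lay at the floor.

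The ratio of ACVR1B to ACVR1 moved most. Its log2 value was 1.29, 1.49 and 1.30 in OV3/SCR against 2.09, 2.16 and 2.17 in OV3/COX1KD, a difference of 0.78 (exact permutation p = 0.1, adjusted p = 0.167). FST relative to FSTL3 was 2.55, 2.55 and 2.64 in OV3/SCR and 3.32, 3.25 and 3.22 in OV3/COX1KD, a difference of 0.69 (exact permutation p = 0.1, adjusted p = 0.167). In both the conditions did not overlap.

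INHBB, the activin B subunit, moved differently against its binding proteins. Relative to FST it was -0.36, -0.39 and -0.36 in OV3/SCR and -0.46, -0.57 and -0.52 in OV3/COX1KD, a difference of -0.14 (exact permutation p = 0.1, adjusted p = 0.167). Relative to FSTL3 it was 2.19, 2.15 and 2.28 in OV3/SCR and 2.86, 2.68 and 2.70 in OV3/COX1KD, a difference of 0.54 (exact permutation p = 0.1, adjusted p = 0.167). ACVR2A relative to ACVR2B differed by 0.19 (exact permutation p = 0.2, adjusted p = 0.286), and INHBB relative to INHA by 0.25 (exact permutation p = 0.6, adjusted p = 0.6), both with overlapping libraries. INHBB relative to INHA differed by 0.048 without OV3/SCR replicate 3 and by 0.048 without OV3/COX1KD replicate 1.

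**Figure D4:**
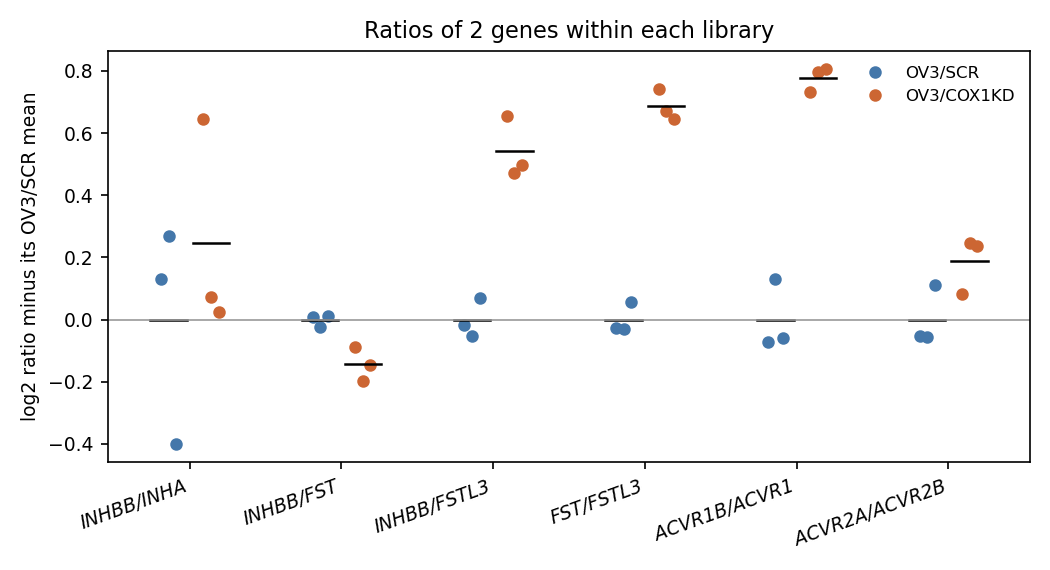
Log2 ratio of 2 genes within each library, from TMM-normalized CPM plus 0.5, shown as the difference from the mean of the OV3/SCR libraries, with points for libraries and bars for means. The 3 OV3/COX1KD libraries lie apart from the 3 OV3/SCR libraries for INHBB/FST, INHBB/FSTL3, FST/FSTL3 and ACVR1B/ACVR1, and overlap with them for INHBB/INHA and ACVR2A/ACVR2B.

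Other genes of the pathway were taken from 7 lists with 62 genes, of which 59 had a row in the table and 43 were tested. Among the 43, 15 were higher and 14 lower at an edgeR FDR under 0.01, with a median log2 fold change of -0.051. Over all tested genes 25.8% were higher and 22.1% lower. Some of them, SMAD7 and the TGF-β and BMP receptors among them, are genes the study itself singled out in these samples, so their directions are no independent evidence. Genes called with a fold change above 1.5, which held for 16.3% of all tested genes, are named here.

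The convertases that cut activin and related precursors into mature ligands were all called, 3 lower and 1 higher. FURIN fell from 58.2 to 36.3 CPM (log2 fold change -0.68, edgeR FDR = 4.5e-11), PCSK5 fell from 24.9 to 10.3 CPM (log2 fold change -1.27, edgeR FDR = 1.0e-11) and PCSK7 fell from 60.3 to 36.6 CPM (log2 fold change -0.72, edgeR FDR = 1.7e-09). PCSK6 rose from 2.65 to 4.63 CPM (log2 fold change 0.81, edgeR FDR = 3.7e-05). Exons of TAGLN on the opposite strand cover 10.1% of the exon length of PCSK7.

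Of the other ligands and co-receptors, 5 of 9 in the table were tested, 2 of them higher and 2 lower. TGFBR3, the betaglycan that helps inhibins bind, rose from 6.77 to 10.6 CPM (log2 fold change 0.64, edgeR FDR = 1.7e-06), and IGSF1, a membrane protein once proposed as an inhibin co-receptor, rose from 3.53 to 6.79 CPM (log2 fold change 0.94, edgeR FDR = 1.2e-06). TGFBR3L, a betaglycan-like gene, had counts of 38, 34 and 18 in OV3/SCR against 11, 15 and 16 in OV3/COX1KD, a log2 fold change of -1.06 (edgeR FDR = 0.00557). That call was lost in DESeq2 (FDR = 0.0159) and on leaving out any of 4 libraries, with edgeR FDRs of 0.0438 and 0.0329 without OV3/SCR replicates 1 and 2 in turn, and of 0.0283 and 0.0129 without OV3/COX1KD replicates 1 and 3 in turn.

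Among other antagonists, 3 of 9 were tested and BAMBI, a pseudoreceptor that blocks type I receptors, was the 1 called. It had counts of 35, 30 and 28 in OV3/SCR against 22, 6 and 10 in OV3/COX1KD, a log2 fold change of -1.25 (edgeR FDR = 0.00315). It was not called without OV3/SCR replicate 1 (edgeR FDR = 0.0184), OV3/SCR replicate 2 (0.0130) and OV3/COX1KD replicate 3 (0.0211). Its log2 fold change was -1.92 without OV3/COX1KD replicate 1 and -0.92 without OV3/COX1KD replicate 2. The other receptors gave 4 higher and 1 lower of 5 tested, with BMPR1B rising from 30.0 to 53.8 CPM (log2 fold change 0.84, edgeR FDR = 3.6e-12). Only 2 of them were higher with total count scaling, in DESeq2, without OV3/SCR replicate 2 and without OV3/COX1KD replicate 1. None was lower without OV3/SCR replicate 2 and none without OV3/SCR replicate 3. ACVR1C, a further activin-class type I receptor, had counts of 7, 8 and 5 in OV3/SCR against 4, 0 and 1 in OV3/COX1KD and did not pass the filter.

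In the SMAD2/3 branch, 3 of 8 genes were higher and 1 lower, none beyond 1.5-fold (2 and 2 with total count scaling), and SMAD3 fell from 97.0 to 67.5 CPM (log2 fold change -0.52, edgeR FDR = 1.9e-10). Of 10 regulators of that branch, 4 were lower and 1 higher. With total count scaling 7 were lower, and 3 were higher with no filter or without OV3/COX1KD replicate 2. PMEPA1, a membrane protein that sequesters SMADs, fell most, from 217, 238 and 238 counts in OV3/SCR to 30, 23 and 16 in OV3/COX1KD libraries (log2 fold change -3.29, edgeR FDR = 1.4e-12). The inhibitory SMAD gene SMAD7 had a log2 fold change of -1.31 (edgeR FDR = 5.7e-12), the co-repressor gene SKIL one of -1.03 (edgeR FDR = 7.3e-15) and the ubiquitin ligase gene SMURF2 one of -0.84 (edgeR FDR = 5.7e-14). The repressor gene TGIF2 rose, with a log2 fold change of 1.29 (edgeR FDR = 3.0e-13), and the readthrough gene TGIF2-RAB5IF covers 7.75% of its exon length on the same strand.

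Of 11 genes often read as outputs of SMAD2 and SMAD3, 8 were tested, 4 of them higher and 2 lower, or 2 higher and 2 lower with total count scaling. This list does not hold every such gene. The regulators and antagonists above are not counted in it, whether or not they can also be read as outputs. Called beyond 1.5-fold among them were SMAD7, PMEPA1, SKIL, SMURF2 and BAMBI, lower, and TGIF2, higher. SMAD7 is one that the paper treats as an established target of TGF-β signaling. CDKN2B, which encodes an inhibitor of cyclin-dependent kinases, had a log2 fold change of -1.34 (edgeR FDR = 1.1e-12). LTBP2, with a log2 fold change of 0.95 (edgeR FDR = 3.0e-12), and CDKN1A, with one of 1.13 (edgeR FDR = 3.8e-05), were higher. The other higher genes, CCN2 and TSC22D1, rose by 0.15 and 0.13 on the log2 scale. JUNB, the other lower gene, had a log2 fold change of -0.48. On the opposite strand, exons of HOOK2 cover 14.2% of the exon length of JUNB, and those of LINC01013 11.9% of that of CCN2.

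**Figure D5:**
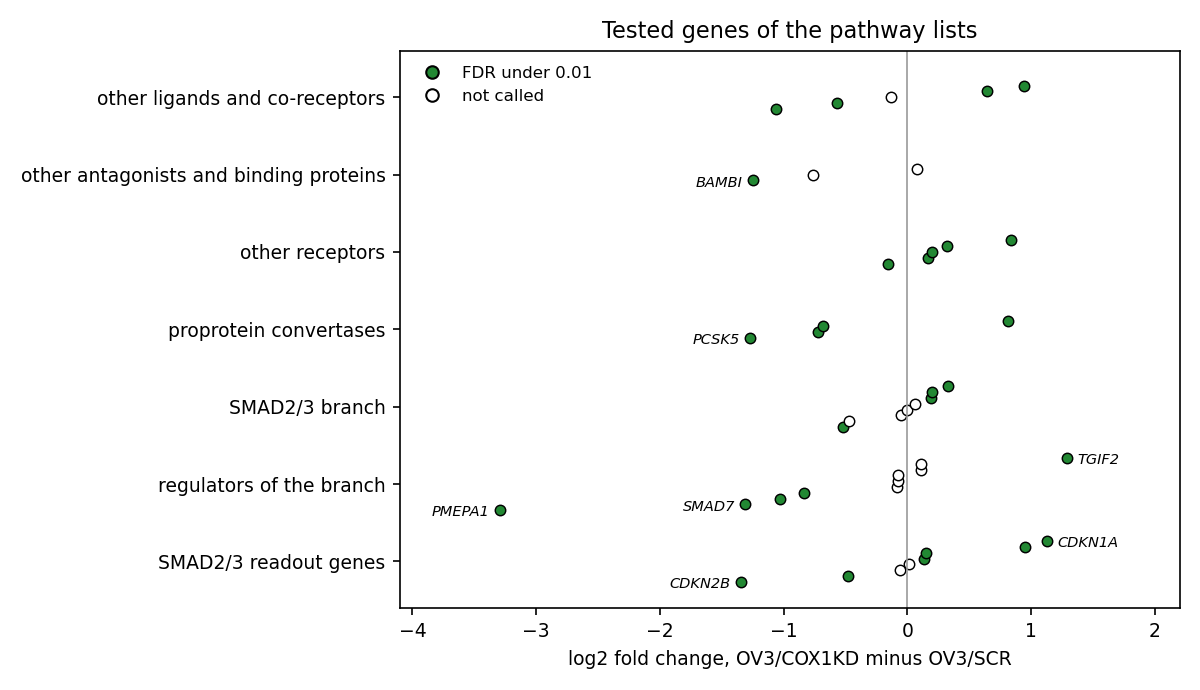
Log2 fold change of OV3/COX1KD against OV3/SCR for the 43 tested genes of the 7 pathway lists, a point per gene, filled where the edgeR FDR was under 0.01, with names for genes beyond 1.1 on the log2 scale. Each list except that of the other antagonists holds filled points on both sides of 0, and PMEPA1 at -3.29 lies farthest out.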

How the data were processed

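RNA-seq was performed on 3 passages each of OV3/SCR and OV3/COX1KD cells. Per the submitters' processing notes and the paper's methods, the authors used TopHat2 2.0 for alignment to hg19 (GRCh37) and HTSeq for counting, and the raw counts were used as deposited. The gene annotation and the strand setting are not given in the sources used here. The fit was made with edgeR 4.0.16 (R 4.3.3) after TMM scaling, filterByExpr (17309 of 34811 genes kept), glmQLFit and glmQLFTest on a single factor for the condition. P-values were adjusted by Benjamini-Hochberg over the genes kept. A call is an FDR under 0.01, as in the study, which used DESeq2. The standard error is the log2 fold change divided by the square root of F. Group values are means ± SD of TMM-normalized CPM.

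The alternatives were RLE and total count scaling, DESeq2 1.42.0, no filter, a filter of 10 or more counts in all libraries, a replicate block, leaving out each library, other pseudocounts for ratios and longest transcript lengths. Coordinates and exon lengths are from GENCODE 44 lifted to GRCh37. The members and gene lists were chosen with earlier results of these data known, and list genes were named where called and changed by more than 1.5-fold. GDF1, MSTN, CFC1, FSHR and PECAM1 were listed and are not analysed here, and some genes of the readout list are not reported here and are left out of its counts. Replicate pairs gave chi-square values of 1.74 to 5.74 per degree of freedom, above sampling noise. OV3/COX1KD replicate 2 gave 4.44 and 5.74 against replicates 1 and 3 of its condition, which gave 1.81 against each other. Without that library 4852 genes were called higher and 4137 lower over the whole table, in place of 4473 and 3820. The scripts were tested on simulated data.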

Additional observations from a re-analysis of the deposited data

How the results depend on the processing

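The calls of FST, ACVR1B, FSTL3, FSTL1 and ACVR1 kept their direction and their FDR under 0.01 in all 12 alternatives. Their log2 fold changes ranged from 0.095 to 0.19, 0.36 to 0.47, -0.60 to -0.49, -0.46 to -0.36 and -0.43 to -0.32 in that order. Of the genes not called, INHBB turned to -0.049 with total count scaling, INHA to 0.026 without OV3/SCR replicate 3 and ACVR2B to 0.0020 without OV3/SCR replicate 2. Leaving out each library gave -0.62 to 0.026 for INHA and -0.050 to 0.0020 for ACVR2B, with no call. INHA had no value under the filter of 10 counts. ACVR2A was called in 2 of 12 alternatives, with no filter and without OV3/COX1KD replicate 1, which took the count of higher genes from 2 to 3. With the replicate block the FDR of ACVR2A was 0.0170, and the block changed no call among the 10 genes. The growth protocol speaks of replicate pairs without saying what a pair shared. Deviations of same-numbered libraries correlated between 0.0045 and 0.042 across 17309 genes, and those of different-numbered libraries between -0.027 and 0.018. These ranges overlap, so the replicate numbers were not taken as a pairing. Counts over the pathway lists ranged from 10 to 18 higher and from 11 to 18 lower. Total count scaling moved the median log2 fold change of all genes to -0.087. The order of the 10 mean levels per exon length was the same with longest transcript lengths, but ACVR2A and ACVR1 then overlapped in OV3/SCR, and ACVR1 and ACVR2B no longer did in OV3/COX1KD. Depth limits INHA and INHBA, with at most 29 and 4 counts in a library.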

Other observations

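AMH, which encodes anti-Müllerian hormone, another ligand of the TGF-β family and a granulosa cell marker, was well above the other markers of its list. Its level was 102 ± 3.03 CPM in OV3/SCR against 47.2 ± 8.62 CPM in OV3/COX1KD (SD, n = 3 each), with 2781, 2562 and 2638 against 1089, 1431 and 1100 counts. The change was -1.11 ± 0.074 (standard error) on the log2 scale (edgeR FDR = 1.3e-10), and the libraries of the conditions did not overlap. AMHR2, the type II receptor for this hormone, had 0 to 2 counts per library. FOXL2, a granulosa cell transcription factor, had 23 to 36 counts per library, with a log2 fold change of 0.21 (edgeR FDR = 0.453). AMH is named here after its values were seen.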
